A study of Mus musculus with 11 samples.

Results

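Cytoplasmic ribosomal protein genes were taken as the protein-coding genes of GENCODE mouse release M21 whose symbols begin with Rpl or Rps and a digit, together with Rplp0, Rplp1, Rplp2 and Rpsa, leaving out the Rps6k kinases and pseudogene names, with a mean of at least 1 CPM (counts scaled to a library of 1e6) over all mice. Of the 22608 genes in the table, 86 matched the name rule and 84 reached that level, 50 named for the large subunit and 34 for the small subunit. The testis-associated paralogs Rpl10l, at a mean of 0.00766 CPM, and Rpl39l, at 0.0894 CPM, fell below it. Of the 84 genes, 77 stand for the ribosomal proteins themselves. The other 7 are the paralogs Rpl3l, Rpl7l1, Rpl22l1, Rpl36al and Rps27l, the retrocopy Rps27rt, and Rps19bp1, which matched by name and encodes a protein that binds RPS19 and is not a part of the ribosome.

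RNA was sequenced from hearts of male mice on a C57BL/6J background aged between 8 and 16 weeks. CD mice carry a heterozygous deletion from Gtf2i to Fkbp6 that models Williams-Beuren syndrome, and WT mice were their littermates. JZL184, which blocks the breakdown of the endocannabinoid 2-arachidonoylglycerol by monoacylglycerol lipase, was injected intraperitoneally at 8 mg/kg each day for 10 days, and VEH mice received its vehicle of DMSO, PEG400, Tween-80 and saline. There were 2 WT VEH mice and 3 mice in each of the groups WT JZL184, CD VEH and CD JZL184, and the labels call the vehicle mice untreated in one field and vehicle in another.

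A ribosome is built from a small subunit, which reads the mRNA, and a large subunit, which joins amino acids, and each holds ribosomal RNA and a set of proteins that are needed in matched amounts. Most mRNAs of these proteins begin with a cytosine followed by a run of pyrimidines, the terminal oligopyrimidine (TOP) motif, through which mTORC1 and the RNA-binding protein LARP1 regulate their translation and stability. In muscle, the paralog RPL3L can take the place of RPL3 in the large subunit.

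The starts of these genes are shown to make the shared motif visible and to show a gene and its retrocopy that share most of their transcribed bases. RefSeq promoter windows of the GRCm38.p6 build were matched by symbol for 64 of the 84 genes, with 76 annotated starts. A cytosine at the annotated start followed by at least 4 bases that are C or T was present at 14 of the 76 starts (18.4%) and at 823 of all 32851 starts (2.51%). Each line below gives 20 bases before the annotated start and 20 bases from it, 5′ to 3′, with the pyrimidine run in capitals.
Rps6 (chr4:86857348-86857387, minus strand): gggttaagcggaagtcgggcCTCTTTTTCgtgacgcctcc
Rpl15 (chr14:18270967-18271006, minus strand): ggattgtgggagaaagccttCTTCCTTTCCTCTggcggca
Rpl35 (chr2:39005112-39005151, minus strand): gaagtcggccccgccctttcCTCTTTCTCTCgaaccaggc
Rps10 (chr17:27635225-27635264, minus strand): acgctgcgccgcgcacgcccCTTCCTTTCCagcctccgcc
Rps18 (chr17:33955646-33955685, minus strand): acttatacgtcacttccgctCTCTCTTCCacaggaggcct
Rplp2 (chr7:141447631-141447670, plus strand): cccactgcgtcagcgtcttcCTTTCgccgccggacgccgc
Rps27 (chr3:90213629-90213668, minus strand): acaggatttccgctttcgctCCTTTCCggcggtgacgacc
Rps27rt (chr9:114982720-114982759, minus strand): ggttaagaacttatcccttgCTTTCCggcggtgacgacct
Rpl3l (chr17:24727806-24727845, plus strand): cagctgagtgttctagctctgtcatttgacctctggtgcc

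The first 8 genes were taken from those that hold the run. The muscle paralog Rpl3l is shown as a start without it, as were most of the 76 starts. Rps27 and its retrocopy Rps27rt share their transcribed bases, offset by 1 base, while the bases before the start differ. Within the windows of 250 bases before and 50 bases after each start, CCGGAAG, the core bound by GABP and other ETS factors, was found on either strand at 26 of the 76 starts (34.2%) and at 8.86% of all starts. AAGATGGC, bound by YY1, was found on either strand at 8 starts (10.5%, against 2.75% of all starts), GGGCGG at 46 (60.5%, against 35.7%) and TATAAA at 7 (9.21%, against 13.6%). The counts for the letters overlap, since 1 start can hold several of them.

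Sequencing depth lay between 69660329 and 92251550 counts per mouse, of which a part came from the 13 genes of the mitochondrial genome in the table, namely 39.4% to 41.2% in WT VEH, 45.0% to 46.6% in WT JZL184, 43.5% to 44.7% in CD VEH and 36.4% to 40.1% in CD JZL184 mice. Each CD VEH and each WT JZL184 mouse thus had a higher mitochondrial share than every WT VEH and every CD JZL184 mouse. With the mitochondrial genes left out of the fit, 77, 80, 77 and 82 of the ribosomal protein genes were called in the 4 comparisons, as many as with them. The 84 genes together took between 1.31% and 1.89% of the counts. The smallest count of any of them in any mouse was 197, for Rps27. All 14 tested genes between Gtf2i and Fkbp6 were lower in each of the 6 CD mice than in each of the 5 WT mice, as the genotype labels state. The labels do not say whether mice shared a litter or a preparation day, so the p-values measure the spread between these mice. In bulk heart RNA, fewer cells of a type and less RNA per cell cannot be told apart.

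Summed over the 50 large subunit genes, the level scaled by TMM factors was 7579 and 7519 CPM in WT VEH mice but 9095, 10292 and 10964 CPM in the CD VEH mice. It was 9455, 9497 and 10977 CPM in the WT JZL184 mice and 7295, 7454 and 7463 CPM in the CD JZL184 mice. Each CD VEH and each WT JZL184 mouse lay above every WT VEH and every CD JZL184 mouse. The 34 small subunit genes had the same order of groups, with 5554 to 5593 CPM in WT VEH, 6774 to 8430 CPM in CD VEH, 7094 to 8455 CPM in WT JZL184 and 5332 to 5473 CPM in CD JZL184.

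Relative to WT VEH, the group mean of both subunits together was 1.36 times as high in CD VEH, 1.34 times in WT JZL184 and 0.978 times in CD JZL184, where it was 1.03 times with plain library sizes in place of TMM factors, so the direction of that last ratio depends on the scaling. The ratio of large to small subunit CPM was 1.35 ± 0.000966 (SD, n = 2) in WT VEH, 1.32 ± 0.022 (SD, n = 3) in CD VEH, 1.32 ± 0.0174 (SD, n = 3) in WT JZL184 and 1.37 ± 0.00309 (SD, n = 3) in CD JZL184. The ratio was thus lower in the groups in which the summed level was higher, and the small subunit fold over WT VEH, 1.38 in CD VEH and 1.36 in WT JZL184, was above the large subunit fold, 1.34 and 1.32. With 1 gene per ribosomal protein the ratio was 1.339 to 1.344 in WT VEH and 1.303 to 1.336 in CD VEH mice. It was then 1.307 to 1.331 in WT JZL184 and 1.343 to 1.349 in CD JZL184 mice, so the groups lay closer together. No test was made of these sums.

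**Figure D1:**
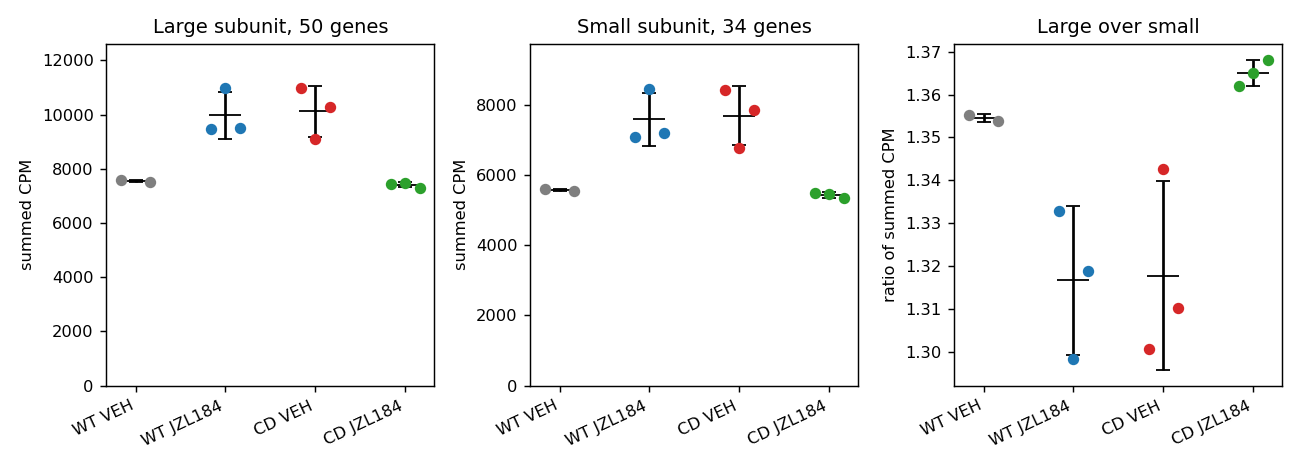
Summed TMM-scaled CPM of the large and small subunit genes and their ratio, 1 point per mouse, with the mean and SD of each group as bars. CD VEH and WT JZL184 mice are higher in both sums and lower in the ratio, whose axis does not start at 0.

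The mice of a group were not alike. CD VEH mouse A had the highest level of its group for 74 of the 84 genes and CD VEH mouse C the lowest for 82. WT JZL184 mouse B was the highest of its group for 80 genes. The CD JZL184 mice lay close together, with large subunit sums between 7295 and 7463 CPM.

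Per kilobase of transcript, Rps2 had the highest level of the 84 genes, at a mean of 677 CPM per kilobase over the mice. Rplp1 followed at 641 CPM per kilobase. The lowest levels were those of Rps19bp1 at 5.99, Rps27 at 13.3 and Rpl7l1 at 17.97 CPM per kilobase. By mean CPM over all mice, which also depends on transcript length, the leading genes were Rps2, Rplp0, Rpsa, Rpl4 and Rps3a1. Rps4x was close to Rps3a1, at 342 against 343 CPM.

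In CD VEH against WT VEH mice, the comparison of genotypes without the drug, 77 of the 84 genes rose and 0 fell (edgeR quasi-likelihood test, Benjamini-Hochberg adjusted p under 0.05). Of all 11319 tested genes, 15.0% rose and 15.4% fell. The median log2 fold-change was 0.45 over the ribosomal protein genes and 0.01 over all tested genes. At an unadjusted p under 0.05 the number that fell was also 0, and DESeq2 called 79 that rose and 0 that fell. Of the large subunit genes 47 of 50 rose, with a median of 0.44, and of the small subunit genes 30 of 34, with a median of 0.48. With WT VEH mouse C left out 7 genes were called, and with WT VEH mouse D left out 28, while the median over the genes stayed between 0.38 and 0.53 whichever mouse was left out. With an offset for gene length 33 genes rose and 1 fell, with a median of 0.21.

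Rps14, a small subunit protein whose loss underlies the anaemia of the 5q- syndrome, was at 205 and 211 CPM in WT VEH mice but 284, 337 and 356 CPM in the CD VEH mice. The groups did not overlap and the log2 fold-change was 0.65 ± 0.11 (SE, edgeR adjusted p = 0.0039). Rps27rt, the retrocopy, had 110.9 and 100.5 CPM against 143, 165 and 190 CPM, which also did not overlap (log2 fold-change 0.65 ± 0.13, SE, edgeR adjusted p = 0.0056). For Rps16, of the small subunit, the log2 fold-change was 0.60 ± 0.11 (SE, edgeR adjusted p = 0.0050). Those were the 3 largest rises, and the calls were lost without WT VEH mouse C for Rps14 (edgeR adjusted p = 0.052) and Rps16 (0.053) and without WT VEH mouse D for Rps27rt (edgeR adjusted p = 0.052). The 3 smallest among the genes called were Rpl4 (0.27), Rpl22 (0.29) and Rpl9 (0.30), all of the large subunit. Of 21 alternatives, 5 ended the call of Rpl4, 5 that of Rpl22 and 8 that of Rpl9, which was at 0.04 with the length offset (edgeR adjusted p = 0.73). Of the 32 genes named that were called in this comparison, 28 lost the call under at least 1 alternative, Rpl3 under the most, 9.

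Rpl4, which reaches into the exit tunnel for the new protein, was at 336 and 333 CPM in WT VEH mice and 378, 411 and 419 CPM in CD VEH mice, again without overlap. Of the stalk proteins, which recruit elongation factors, Rplp0 (log2 fold-change 0.45, edgeR adjusted p = 0.0089) and Rplp1 (0.52, edgeR adjusted p = 0.0092) rose. Rplp2, their partner, was at 126 and 112 CPM against 121, 132 and 149 CPM, and the groups overlapped (log2 fold-change 0.17 ± 0.10, SE, edgeR adjusted p = 0.22). Rps6, the small subunit protein phosphorylated by S6 kinase, was at 225 and 223 CPM against 263, 292 and 319 CPM and rose (log2 fold-change 0.38 ± 0.09, SE, edgeR adjusted p = 0.011).

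Rpl5 (0.41) and Rpl11 (0.40), which carry the 5S ribosomal RNA and bind MDM2 when ribosome assembly is disturbed, both rose, as did Rps19 (0.52), mutated in Diamond-Blackfan anaemia, Rps27a (0.48), made as a fusion with ubiquitin, and Rpsa (0.41), also known as the laminin receptor. Besides Rplp2, the genes that did not pass the test were Rpl3l, Rpl7l1, Rps19bp1, Rps27, Rps9 (0.26, edgeR adjusted p = 0.071) and Rps13 (0.30, edgeR adjusted p = 0.051). Rps13 stayed without a call under 12 of 21 alternatives and Rps9 under 16 of 21, and under the others each was called as higher. Rps13 is outside the naming rule and was picked once its value had been seen.

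**Figure D2:**
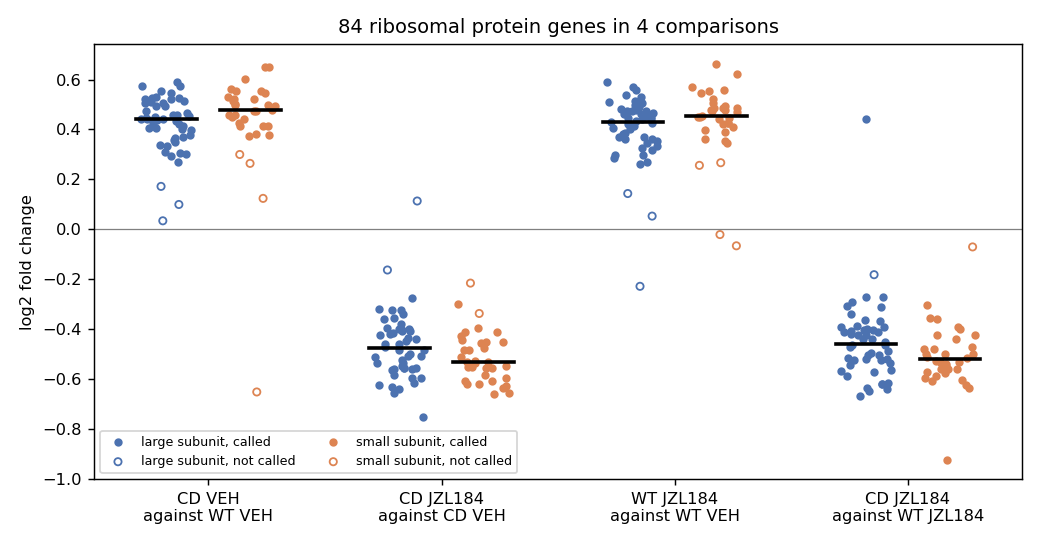
Log2 fold-change of each of the 84 genes in the 4 comparisons, by subunit, with the median as a black line. Filled points passed the test and open points did not. Nearly all points lie above 0 in CD VEH against WT VEH and WT JZL184 against WT VEH and below 0 in the comparisons of CD JZL184 mice.

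In CD JZL184 against CD VEH mice, the effect of the drug in the deletion carriers, 80 of the 84 genes fell and 0 rose, where 17.0% of all tested genes fell and 16.8% rose. At an unadjusted p under 0.05 the number that rose was also 0, as it was in DESeq2, which called 80 that fell. The median log2 fold-change was -0.50, against 0.00 over all tested genes. Of the large subunit 48 genes fell, with a median of -0.48, and of the small subunit 32, with a median of -0.53. With an offset for gene length 49 genes fell and the median was -0.22.

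Rpl39, a very small protein lining the exit tunnel, fell the most. It was at 62.2, 74.7 and 88.6 CPM in CD VEH mice and 43.2, 44.8 and 45.9 CPM in CD JZL184 mice, without overlap (log2 fold-change -0.75 ± 0.13, SE, edgeR adjusted p = 0.0029). Rps12 and Rpl34 followed, both at -0.66. The smallest falls were those of Rpl4 (-0.28), Rps9 (-0.30) and Rplp2 (-0.32). Rps9 lost its call under 6 of 21 alternatives, without CD VEH mouse A (-0.21, edgeR adjusted p = 0.13) or E (0.072), without any 1 of the CD JZL184 mice (edgeR adjusted p between 0.065 and 0.074), and with the length offset (-0.04, edgeR adjusted p = 0.70). Rplp2 lost it without CD VEH mouse A (edgeR adjusted p = 0.10) or E (0.058) and without CD JZL184 mouse E (0.086), and was at 0.09 with the length offset (edgeR adjusted p = 0.37). Of the 35 genes named that were called here, 24 kept the call under every alternative.

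Rps14 fell from between 284 and 356 CPM to 209, 212 and 214 CPM, beside 205 and 211 CPM in WT VEH mice. Rps6 was at 217, 219.5 and 221 CPM in the CD JZL184 mice, beside 225 and 223 CPM in WT VEH mice. With plain library sizes these were 226, 234 and 236 CPM beside 224 and 227 CPM, so their order depends on the scaling. Rpl3l, Rpl7l1, Rps19bp1 and Rps27 did not pass the test in this comparison.

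In WT JZL184 against WT VEH mice, the effect of the drug without the deletion, 77 genes rose and 0 fell, where 15.4% of all tested genes rose and 14.0% fell. At an unadjusted p under 0.05, 1 gene was lower, and DESeq2 called 78 that rose and 0 that fell. The median log2 fold-change was 0.44, against 0.00 over all tested genes. This comparison uses the same 2 WT VEH mice as that of CD VEH mice. Without WT VEH mouse C 9 genes were called, and without WT VEH mouse D 15, while the median stayed between 0.36 and 0.49 whichever mouse was left out. With an offset for gene length 44 genes rose and 1 fell, with a median of 0.23. With the letter of the column names as a block, a fit added after the data were seen, 3 genes rose, with a median of 0.30.

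Rps14 again rose the most, at 301, 305 and 380.5 CPM in the WT JZL184 mice (log2 fold-change 0.66 ± 0.11, SE, edgeR adjusted p = 0.0036). Rps27rt (0.62) and Rpl26 (0.59), which lies near the exit of the tunnel, followed. The smallest rises were those of Rpl4 (0.26), Rpl36al (0.27) and Rpl9 (0.28). The call of Rpl9 was lost under 12 of 21 alternatives (edgeR adjusted p up to 0.54, with 0.06 as the log2 fold-change under the length offset), that of Rpl36al under 4 (up to 0.44) and that of Rpl4 under 4 (up to 0.10). Of the 32 genes named that were called, 27 lost the call under at least 1 alternative. Rpl4 was at 388, 404 and 411 CPM, above both WT VEH mice.

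In CD JZL184 against WT JZL184 mice, the comparison of genotypes under the drug, 81 genes fell and 1 rose, where 20.1% of all tested genes fell and 18.2% rose. The median log2 fold-change was -0.50, against 0.00 over all tested genes. With an offset for gene length 61 genes fell and 1 rose, with a median of -0.24. With the letter of the column names as a block, a fit added after the data were seen, 34 genes fell and 1 rose, with a median of -0.37. Without offset or block, the gene that rose was Rpl3l. The largest falls were those of Rps27 (-0.92 ± 0.29, SE, edgeR adjusted p = 0.028), Rpl39 (-0.67) and Rpl3 (-0.65), and the smallest those of Rpl7a (-0.27) and Rpl4 (-0.27). The call of Rps27 was lost with the length offset (-0.49, edgeR adjusted p = 0.18), without CD JZL184 mouse C (0.093) or E (0.080) and without WT JZL184 mouse A (0.071) or B (0.074). That of Rpl7a was lost with the length offset (-0.07, edgeR adjusted p = 0.35).

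The difference between the drug's effects in CD and WT mice was tested with the interaction term, which uses all 4 groups. It passed the test with a negative value for 80 of the 84 genes and with a positive value for 1, Rpl3l, where 26.2% of all tested genes had a negative and 25.3% a positive interaction that passed the test. The median was -0.95 on the log2 scale. Among the genes with the smallest p were Rps26, Rps7, Rpl26, Rps14 and Rpl29. Rps26, which lies at the mRNA exit of the small subunit, was at 58.3 and 59.4 CPM in WT VEH, 78.1, 78.8 and 90.3 CPM in WT JZL184, 75.5, 86.1 and 86.6 CPM in CD VEH and 56.6, 59.7 and 61.1 CPM in CD JZL184 mice. Its interaction was -0.97 ± 0.11 (SE, edgeR adjusted p = 0.00014). The high groups did not overlap the low groups, and the low groups overlapped each other. With an offset for gene length 71 genes had a negative interaction and 1 a positive.

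**Figure D3:**
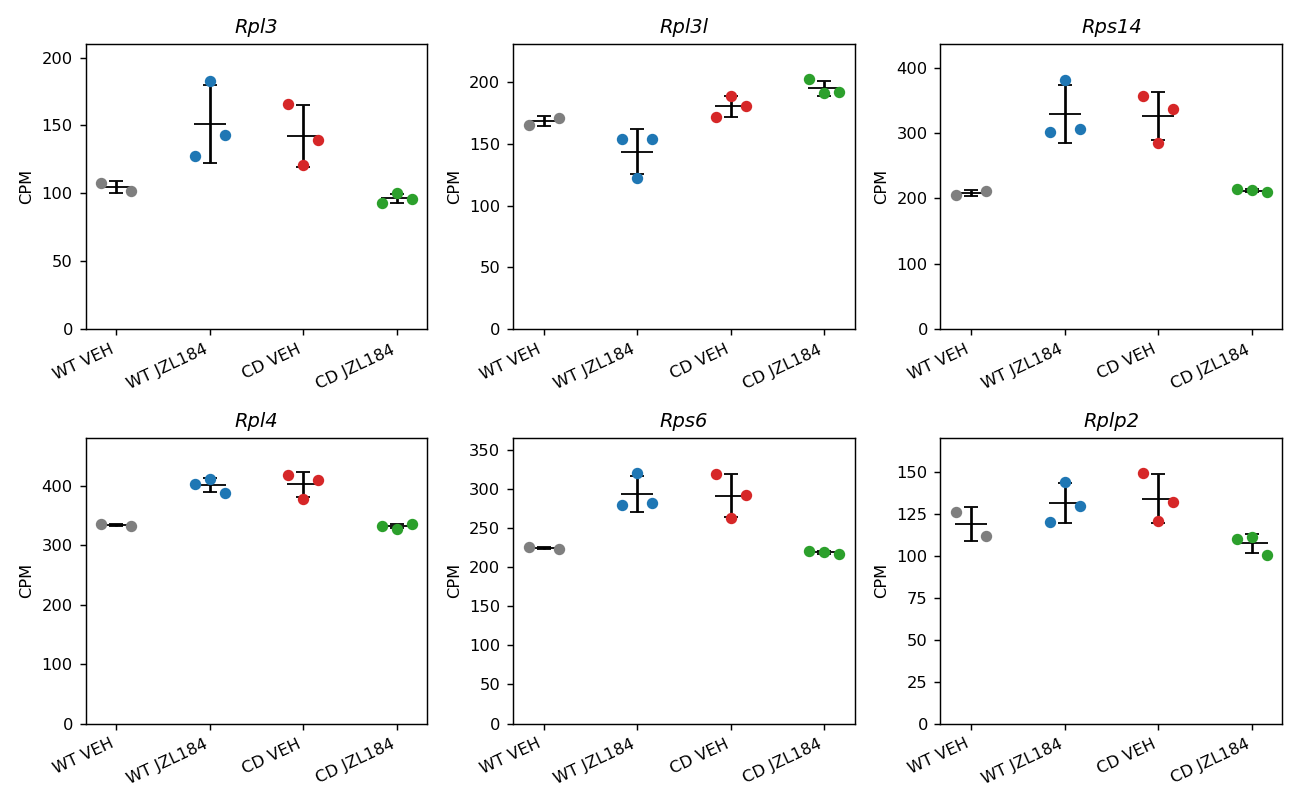
TMM-scaled CPM of 6 genes in each mouse, with the mean and SD of each group as bars and axes from 0. Rpl3, Rps14, Rpl4 and Rps6 are higher in all CD VEH and WT JZL184 mice than in the other mice, Rplp2 overlaps between groups, and Rpl3l is lowest in WT JZL184 and highest in CD JZL184.

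Rpl3l, the muscle paralog of Rpl3, had another pattern. It was at 165 and 171 CPM in WT VEH, 123, 154 and 154 CPM in WT JZL184, 172, 180.2 and 189 CPM in CD VEH and 191, 192 and 202 CPM in CD JZL184 mice. In CD JZL184 against WT JZL184 mice it rose (log2 fold-change 0.44 ± 0.08, SE, edgeR adjusted p = 0.0027), also under each of the 21 alternatives. Its interaction was 0.34 ± 0.13 (SE, edgeR adjusted p = 0.039) and kept its call under 12 of 20 alternatives, with adjusted p between 0.0062 and 0.12. It lost the call without WT VEH mouse C (0.37, edgeR adjusted p = 0.078), WT VEH mouse D (0.32, 0.12), CD VEH mouse A (0.31, edgeR adjusted p = 0.085), CD VEH mouse E (0.35, 0.066), CD JZL184 mouse A (0.32, 0.082), CD JZL184 mouse C (0.36, 0.055) or CD JZL184 mouse E (0.35, 0.062). In the other 3 comparisons it did not pass the test (CD VEH against WT VEH 0.10, CD JZL184 against CD VEH 0.11, WT JZL184 against WT VEH -0.23). In WT JZL184 against WT VEH mice it stayed without a call under 19 of 21 alternatives and was called as lower under the others.

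Rpl3, the general form, was at 102 and 108 CPM in WT VEH, 127.5, 143 and 183 CPM in WT JZL184, 121, 139 and 166 CPM in CD VEH and 93.1, 96.0 and 100.1 CPM in CD JZL184 mice. The ratio of Rpl3l to Rpl3 CPM was therefore 1.53 and 1.68 in WT VEH, 0.67, 1.08 and 1.21 in WT JZL184, 1.03, 1.29 and 1.56 in CD VEH and 1.905, 2.0004 and 2.168 in CD JZL184 mice. The CD JZL184 mice lay above all others. By a two-sided exact permutation test over mice, CD JZL184 differed from CD VEH with p = 0.1 and from WT JZL184 with p = 0.1, the smallest that 3 against 3 mice allow (adjusted over the 4 comparisons, 0.2). For WT JZL184 against WT VEH the exact p was 0.2, the smallest that 3 against 2 mice allow, and for CD VEH against WT VEH it was 0.4, so no comparison of this ratio could pass 0.05. Per kilobase, the mean level was 125 CPM for Rpl3l and 92.7 CPM for Rpl3.

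Of the other paralogs, Rpl22l1 and Rpl22, Rpl36al and Rpl36a, and Rps27l were all called in the same direction in each of the 4 comparisons as most of the genes. Rpl22l1 was at 16.4 and 18.8 CPM in WT VEH and 20.4, 21.4 and 28.9 CPM in CD VEH mice, and its rise there was lost under 5 of 21 alternatives (edgeR adjusted p up to 0.46). Rpl7l1, a relative of Rpl7 with a role in ribosome assembly, passed the test in none of the 4 comparisons (edgeR adjusted p between 0.055 and 0.76, unlike Rpl7, which was called in all 4), and neither did Rps19bp1, at 4.37 to 5.93 CPM over all mice. In CD JZL184 against CD VEH mice Rpl7l1 stayed without a call under 19 of 21 alternatives. In CD JZL184 against WT JZL184 mice it did so under 16 of 21, and under the others it was called as lower. Rpl10, Rpl36a, Rpl39 and Rps4x, the X-linked members named here, were called in all 4 comparisons in the direction of the majority.

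Rps27 was the lowest of the ribosomal protein genes proper, at 2.34 to 7.46 CPM. It was at 4.68 and 7.46 CPM in WT VEH, 2.42, 3.65 and 5.53 CPM in CD VEH, 4.38, 6.46 and 6.63 CPM in WT JZL184 and 2.34, 2.91 and 3.96 CPM in CD JZL184 mice. The CD JZL184 mice lay below all WT mice, and the other groups overlapped each other. Rps27rt was at 99.2 to 190 CPM. The best local alignment of their transcripts ran over 341 bases, all identical, so how the estimated counts were divided between both genes is uncertain, and the values of each are uncertain with it. Rps27 and Rps27l, by contrast, matched at 76.4% of 254 aligned bases, and Rpl3 and Rpl3l at 74.5% of 678. The table holds no ribosomal protein pseudogene under the names searched, and reads from such copies could have been counted with the parent genes.

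Genes with and without the pyrimidine run at an annotated start are given side by side, and the difference between them was not tested. The run was read at annotated starts alone, so the genes without it are not a set of genes without TOP mRNAs. Of all tested genes, 15.0% rose in CD VEH against WT VEH mice and 17.0% fell in CD JZL184 against CD VEH mice. In WT JZL184 against WT VEH mice 15.4% rose, and in CD JZL184 against WT JZL184 mice 20.1% fell. In CD VEH against WT VEH mice 12 of 14 such genes rose, with a median log2 fold-change of 0.43, beside 45 of 50 genes that had a RefSeq start and no run, with a median of 0.44. In CD JZL184 against CD VEH mice 13 of 14 and 47 of 50 fell, with medians of -0.50 and -0.48. In WT JZL184 against WT VEH mice 12 of 14 and 45 of 50 rose, with medians of 0.43 and 0.44, and in CD JZL184 against WT JZL184 mice 14 of 14 and 47 of 50 fell, with medians of -0.54 and -0.47.

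Most ribosomal protein transcripts are short, with a median length of 803.5 bases against 3005.5 over all tested genes, and fold-changes moved with length among all other genes too. In CD VEH against WT VEH mice, the median log2 fold-change of other genes was 0.29 under 600 bases (112 genes) and fell to -0.20 from 6000 bases (1359 genes). Ribosomal protein genes under 600 bases had a median of 0.49 (23 genes). Among genes under 1000 bases 54 of 59 ribosomal protein genes rose, and of the other genes 275 of 618 rose and 8 fell, with medians of 0.46 and 0.24. In CD JZL184 against CD VEH mice these medians were -0.51 and -0.27. Across genes, which are not independent replicates, Spearman's rho of log2 fold-change with length was -0.19 over the 84 genes and -0.39 over 11156 other genes in CD VEH against WT VEH mice. The part of transcript length in the changes of the ribosomal protein genes was not tested beyond the offset. That offset was fitted over all tested genes with a length, the ribosomal protein genes among them, so it can take up part of their own change. Shares of all tested genes called with the offset are not given here, so its counts have no such share beside them.

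**Figure D4:**
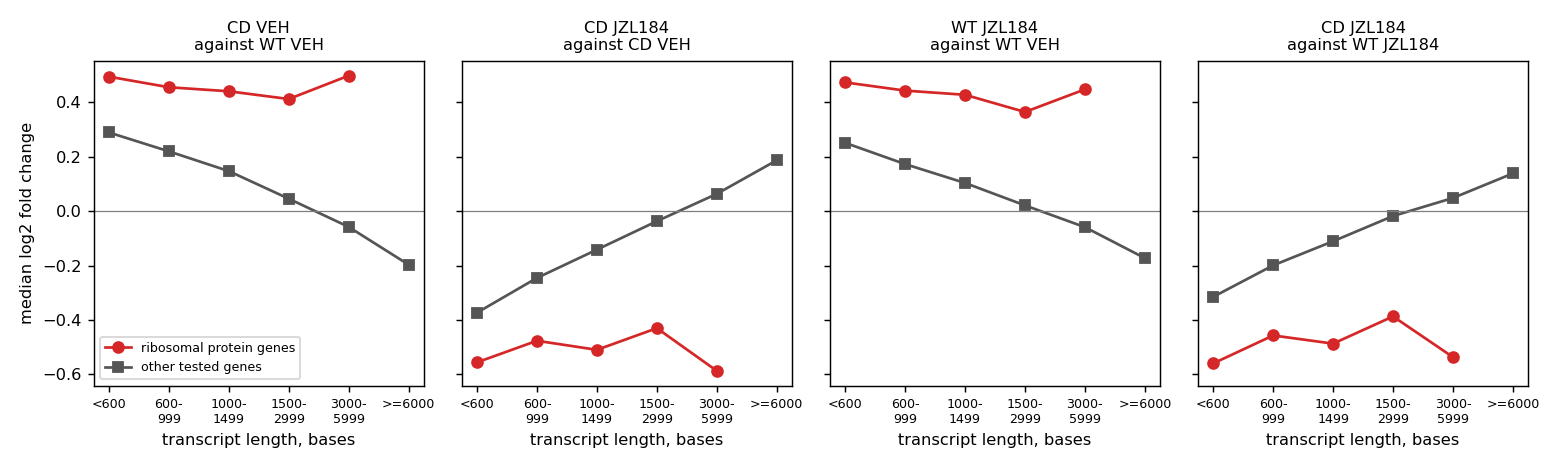
Median log2 fold-change by transcript length class for the ribosomal protein genes and for all other tested genes in the 4 comparisons. The medians of other genes slope with length in each comparison. Those of the ribosomal protein genes lie farther from 0 in every class that holds any. The longest such class holds 2 of them, Rps15a and Rps20, by annotated lengths of 5130 and 3706 bases.

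The other genes of translation and ribosome assembly were described from lists. Of 20 further TOP mRNAs, 9 rose and 1 fell in CD VEH against WT VEH mice (median log2 fold-change 0.22), where 15.0% of all tested genes rose and 15.4% fell. In CD mice under JZL184 12 of them fell (median -0.23), where 17.0% of all tested genes fell. The elongation factor gene Eef1a1 had log2 fold-changes of 0.70 and -0.55, and Tpt1 of 0.43 and -0.53. Rack1, a scaffold on the small subunit, rose (0.38) and fell (-0.41) likewise. Fau, which encodes RPS30, had values of 0.25 and -0.21 and passed neither test, and Naca was the TOP mRNA that fell in CD VEH mice (-0.31).

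Assembly factors are given beside the 15.0% of all tested genes that rose and the 15.4% that fell in CD VEH against WT VEH mice. Of 24 large subunit assembly genes 2 rose and 2 fell in CD VEH against WT VEH mice (median 0.01), with Eif6, which keeps the subunits apart, at 0.44 and Mdn1 at -0.45. Of 24 rRNA modification and small subunit assembly genes 2 rose and 4 fell (median 0.06), among them Bud23, which lies inside the deletion, and Nat10, an rRNA acetyltransferase, at -0.35, and of 11 RNA polymerase I genes 2 rose and 2 fell (median 0.01), with Polr1a at -0.41 and Rrn3 at -0.39. In CD JZL184 against CD VEH mice, where 16.8% of all tested genes rose and 17.0% fell, 1 of the large subunit assembly genes rose and 5 fell (median -0.04), and 2 of the rRNA modification and small subunit assembly genes rose and 5 fell (median -0.06). In CD VEH against WT VEH mice Nhp2 (0.42) and Nop10 (0.34) rose among 5 H/ACA ribonucleoprotein genes. Of 6 nucleolar genes Npm1 (0.26) and Nop53 (0.33) rose. Among 20 tested genes that control TOP mRNAs 3 rose and 6 fell, with Larp1 (-0.47) and Tsc1 (-0.35) changing the most.

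Bud23, the methyltransferase of 18S ribosomal RNA, lies inside the deletion and was at 8.6 and 9.2 CPM in WT VEH and 4.0, 4.6 and 4.7 CPM in CD VEH mice (log2 fold-change -1.001 ± 0.11, SE, edgeR adjusted p = 0.00073). Its partner Trmt112 did not pass the test (0.11, edgeR adjusted p = 0.35). Nsun5, a methyltransferase of 28S ribosomal RNA whose annotated start lies 19909 bases beyond Fkbp6, was at 5.8 to 7.2 CPM over all mice (0.02, edgeR adjusted p = 0.88).

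Markers of other heart cells moved with the same groups, and their counts stand beside the shares of all tested genes that rose (15.0%) or fell (15.4%) in CD VEH against WT VEH mice, rose (15.4%) or fell (14.0%) in WT JZL184 against WT VEH mice and rose (16.8%) or fell (17.0%) in CD JZL184 against CD VEH mice. Of 7 endothelial markers 6 rose in CD VEH against WT VEH mice and 7 in WT JZL184 against WT VEH mice, and their summed level was 597 to 599.9 CPM in WT VEH, 773 to 859.6 CPM in CD VEH, 906 to 965 CPM in WT JZL184 and 584 to 675 CPM in CD JZL184. Of 6 smooth muscle and pericyte markers 5 rose in both, with sums of 605 to 611, 831 to 961, 874 to 946 and 592 to 608 CPM in that order of groups. Of 6 macrophage markers 5 and 6 rose, with sums of 235 to 251, 312 to 412, 313 to 540.3 and 206 to 244 CPM. Of 7 fibroblast markers 2 and 4 rose, with sums of 735 to 755, 854 to 990.2, 884 to 1118 and 670.4 to 780.5 CPM. Of 7 cardiomyocyte markers 2 fell in each. From CD VEH to CD JZL184 mice 6 endothelial, 4 smooth muscle and pericyte, 6 macrophage and 3 fibroblast markers fell, and 2 cardiomyocyte markers rose.

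The sum of the cardiomyocyte markers was 44977 to 46284 CPM in WT VEH, 39100 to 41674 CPM in CD VEH, 34143 to 43943 CPM in WT JZL184 and 43497 to 44701 CPM in CD JZL184. WT JZL184 mouse B, the highest in ribosomal protein level of its group, had the lowest sum, and CD VEH mouse A, likewise the highest of its group, had an erythroid marker sum of 18832 CPM beside 1419 to 5512 CPM in all other mice. Erythroid sums were 2034 to 2494 in WT VEH, 2643 to 5512 in WT JZL184 and 1419 to 2195 CPM in CD JZL184 mice. CD VEH mice C and E were at 2885 and 2032 CPM. Between CD VEH and WT VEH mice the 5 erythroid markers had 1.77 as their median log2 fold-change, and none passed the edgeR test. All 5 fell in CD JZL184 against CD VEH mice (median -2.17), and all 5 had a negative interaction (median -2.94). Without CD VEH mouse A none of the 5 was called in CD JZL184 against CD VEH mice (median -0.43). In that comparison and fit 73 of the 84 ribosomal protein genes still fell. Of the erythroid markers 4 then had a negative interaction (median -1.30). All 5 then fell in CD JZL184 against WT JZL184 mice (median -1.17). In WT JZL184 against WT VEH mice 3 rose (median 0.84), and in CD VEH against WT VEH mice none was called (median 0.12). With all mice none was called in either comparison with WT JZL184 mice (medians -1.17 and 0.84). Lymphocyte and adipocyte markers summed to at most 3.05 and 1.75 CPM, and no marker was at 0 in every mouse. The part of these cell types in the ribosomal protein levels was not tested.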

How the data were processed

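Heart RNA of 11 mice was sequenced by the study. Per the labels and the study's methods, the authors ran Salmon 0.7.2 against Ensembl transcripts of GRCm38 (mm10), summed the estimated counts to genes with tximport, and deposited them without normalization. The table's columns name the group, and 0 columns had no group. Column letters (mouse A to E) are in no sample label.

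After rounding, edgeR 4.0.16 (R 4.3.3, limma 3.58.1) fitted its quasi-likelihood model with TMM factors to all 4 groups at once. The 11319 genes whose average log2 CPM reached 1 were tested. P-values were adjusted by Benjamini-Hochberg over all tested genes, and a gene was called at an adjusted p under 0.05. The common biological coefficient of variation was 9.13%. CPM were divided by TMM-scaled library sizes. Transcript lengths and positions came from GENCODE M21, whose identifiers matched 22238 of 22608 genes, and start sequences from RefSeq (GRCm38.p6). Lengths were medians over annotated transcripts, the principal ones where so marked, and were not measured in these hearts. Intervals and floors were not needed, since the smallest count was well above 3.

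The ribosomal protein genes, the gene lists and the markers were chosen with earlier results of these data known. Named members were the paralog pairs, the stalk proteins and Rpsa, Rps6, Rps14, Rps19, Rpl5, Rpl11 and Rps27a, the 3 highest and 3 lowest called log2 fold-changes of each comparison, the 5 highest mean CPM, up to 6 genes with the smallest interaction p, those called against the majority, and Rps19bp1. Other genes named were Nsun5, Bud23, Trmt112, Fau, Rack1 and, of each list, the 2 with the largest change in CD VEH against WT VEH mice. Naca was named after its value was seen. Some genes that the rule names are not reported here. The 10 listed snoRNA host genes were not analysed here.

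Alternatives were DESeq2 1.42.0, RLE and upper quartile factors, TMM factors without the 84 genes, no mitochondrial genes, no filter, a minimum of 10 counts in each mouse, a fit of the compared groups alone, offsets for gene length and GC content (loess span 0.5, prior count 2), and each mouse left out, and, added after the data were seen, the column letter as a block. The edgeR step was tested on simulated data: in CD VEH against WT VEH mice with 11319 genes, 59% of 100 genes changed by 0.5 on the log2 scale and 97% of 100 changed by 1 were recovered, with 7.14% false calls.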

Additional observations from a re-analysis of the deposited data

Results flagged for a closer look

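The effect of JZL184 differed between CD and WT mice for 81 of the 84 ribosomal protein genes by the interaction term of the edgeR fit, 80 with a lower and 1 with a higher value in CD mice, where 26.2% and 25.3% of all tested genes did so. Values below are the log2 fold-change by JZL184 in CD mice minus that in WT mice. The positive value was that of Rpl3l, 0.34, which lost its call under 8 of 20 alternatives. Of the large subunit, Rpl10 had -0.91, Rpl11 -0.84, Rpl22 -0.66, Rpl22l1 -1.04, Rpl26 -1.21, Rpl29 -0.94, Rpl3 -1.09, Rpl34 -1.22, Rpl36a -1.11, Rpl36al -0.67, Rpl39 -1.20, Rpl4 -0.54, Rpl5 -0.82, Rpl7 -0.89, Rpl7a -0.64 and Rpl9 -0.70. The stalk proteins had -0.86 (Rplp0), -1.02 (Rplp1) and -0.46 (Rplp2). Of the small subunit, Rps12 had -1.15, Rps13 -0.70, Rps14 -1.28, Rps16 -1.18, Rps19 -1.07, Rps2 -0.77, Rps26 -0.97, Rps27a -1.01, Rps27l -1.06, Rps27rt -1.28, Rps3a1 -0.96, Rps4x -1.02, Rps6 -0.80, Rps7 -1.15, Rps9 -0.57 and Rpsa -0.77. The interaction draws on the same WT VEH and CD VEH mice as the separate comparisons, so these values are not further evidence. Groups of 2 and 3 mice were too small for a test of single mice standing apart.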

How the results depend on the processing

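With the gene length offset, 34 genes were called between CD VEH and WT VEH mice (median 0.21), 49 between CD JZL184 and CD VEH mice (-0.22) and 45 between WT JZL184 and WT VEH mice (0.23), and the median between CD JZL184 and WT JZL184 mice was -0.24. With each mouse left out, calls ranged from 7 to 79 for CD VEH and WT VEH mice, 73 to 80 for CD JZL184 and CD VEH mice, 9 to 80 for WT JZL184 and WT VEH mice, 78 to 83 for CD JZL184 and WT JZL184 mice and 79 to 81 for the interaction. The counts of 7 and 9 are those without WT VEH mouse C, which leaves a single WT VEH mouse assumed to vary like the other groups. Medians with each mouse left out ranged from 0.38 to 0.53, -0.57 to -0.43, 0.36 to 0.49 and -0.53 to -0.40 in the same order of comparisons. In all other alternatives but the block given below, the counts stayed within 1.5 times and no median changed direction. The summed level of CD JZL184 over WT VEH mice, 0.978, was 1.03 with plain library sizes and 0.994 without mitochondrial genes. The cause of these shifts was not tested.

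Of the 39 ribosomal protein genes named, which alone were followed gene by gene, signs turned for 5, nearly always where the test was not passed. With the length offset Rpl3l was at -0.036 and Rpl7l1 at -0.039 in CD VEH against WT VEH mice, Rplp2 at -0.17, 0.088, -0.15, 0.069 and 0.23 (interaction), Rps19bp1 at -0.10, 0.040, 0.14 (CD JZL184 against WT JZL184) and 0.25 (interaction), and Rps27 at 0.15 (CD JZL184 against CD VEH) and 0.55 (interaction). Rplp2 had been called in CD JZL184 mice and the interaction, and was not under this offset. Rpl3l lost its interaction with upper quartile factors (0.28, edgeR adjusted p = 0.075). With upper quartile factors Rps19bp1 was at 0.019 in WT JZL184 against WT VEH mice. With each mouse left out, Rpl7l1 ranged from -0.030 to 0.077 in CD VEH against WT VEH mice, Rps19bp1 from -0.036 to 0.0020 and Rps27 from -0.36 to 0.31 in WT JZL184 against WT VEH mice, and Rps27 from -0.58 to 0.020 in CD JZL184 against CD VEH mice and from -0.65 to 0.086 in the interaction.

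The letters in the table's column names are in no label. Mice of CD VEH and CD JZL184 with the same letter did not deviate together over the tested genes (Pearson's r of 0.019 for A, -0.14 for C and -0.015 for E). WT mice were not compared in this way, so these values do not bear on the comparisons that include WT mice. A fit with the letter as a replicate block over all 4 groups, chosen after seeing the data, called 61, 80, 3 and 35 ribosomal protein genes in the 4 comparisons and 79 in the interaction, with medians of 0.42, -0.50, 0.30 and -0.37. It put Rpl7l1 at -0.044 in CD VEH against WT VEH mice and Rps27 at 0.25 in the interaction. Counts of alternatives given for single genes leave this fit out. With 2 WT VEH mice, comparisons against them have the least precision.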
